A study of Mus musculus with 6 samples.

Results

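The aryl hydrocarbon receptor axis was described by 7 genes, Ahr, Ahrr, Arnt, Cyp1a1, Cyp1b1, Tiparp and Nqo1, of 22180 genes that the arrays named. Members were taken by symbol: every probe set that the platform annotation assigns to exactly 1 of these symbols, which gave 8 probe sets, with 2 for Tiparp. A gene's main value came from its brightest probe set. The arrays measured RNA from naive CD8+ T cells of mouse spleen, stimulated with antibodies to CD3 (1 µg/ml) and CD28 (3 µg/ml) over 4 days. Tc1 cultures received IL-12 and Tc17 cultures received IL-6 and TGFb during 3 of these days, and IL-2 followed in both. Each group had 2 biological samples, and sample 2 of each had a further technical array, so 6 arrays stood for 4 samples. Strain, age and any pooling of animals are not given in the sources used here.

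The receptor encoded by Ahr is a transcription factor of the bHLH-PAS family that waits in the cytosol in a complex with the chaperone HSP90. When it binds a ligand, such as a tryptophan breakdown product or dioxin, it enters the nucleus, pairs with the protein of Arnt and binds DNA at xenobiotic response elements. Its target genes include Cyp1a1 and Cyp1b1, whose enzymes break down ligands, and Ahrr and Tiparp, whose products restrain the receptor. In T cells the receptor is best known from IL-17- and IL-22-producing cells.

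Of the 7 genes, the receptor gene and the gene of its repressor were higher in Tc17, and the partner, the CYP1 enzymes, Tiparp and Nqo1 did not pass the test. Ahr was 21.8-fold higher and Ahrr 3.51-fold higher in Tc17 than in Tc1 (limma adjusted p = 0.00986 and 0.00711, n = 2 samples per group). A gene is called here when its limma p-value, adjusted over all 41345 probe sets, is under 0.05, and 0.992% of all genes were called higher in Tc17. All 7 differences lay above 0, as did 45.8% of those of all genes. The members' median was 0.51 on the log2 scale against −0.01 over all genes. With 7 genes this median is the difference of Tiparp (SE 0.43), whose other probe set gave −0.04. That median was 0.16 without Tc1 sample 1 and 0.19 without Tc17 sample 2. The number of differences above 0 was 6 with the technical arrays left out and 5 without Tc1 sample 1. All 3 Tc17 arrays lay above all 3 Tc1 arrays for 4 members (Ahr, Ahrr, Cyp1a1 and Cyp1b1), an order found in 15.2% of all genes. The members were chosen with earlier results of these arrays known.

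The upstream sequences are shown for the repressor gene, which was called, and for Cyp1b1, Cyp1a1 and Tiparp, which were not. Those of Arnt and Nqo1 were searched but are not printed. RefSeq's promoter table (GRCm38.p6) held 6 of the 7 genes, all but Ahr. The letters searched were GCGTG, the core of the xenobiotic response element, on both strands of the 250 bases before the annotated start. They were found for Ahrr, Arnt, Cyp1a1, Cyp1b1 and Tiparp, 5 of 6 genes, and in 28.2% of the 32851 windows of the table. Ahrr held 3 matches, a number reached by 2.77% of windows, and the others 1 each. Capitals mark GCGTG, or CACGC where it lies on the opposite strand, and each line reads 5′ to 3′ on the gene's strand.
Ahrr (chr13:74292332-74292581, minus strand): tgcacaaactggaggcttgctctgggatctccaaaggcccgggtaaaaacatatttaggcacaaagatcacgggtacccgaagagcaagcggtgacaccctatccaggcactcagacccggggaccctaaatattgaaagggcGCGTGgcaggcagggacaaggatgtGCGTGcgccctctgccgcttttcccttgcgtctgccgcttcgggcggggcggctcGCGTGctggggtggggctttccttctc
Cyp1b1 (chr17:79715062-79715311, minus strand): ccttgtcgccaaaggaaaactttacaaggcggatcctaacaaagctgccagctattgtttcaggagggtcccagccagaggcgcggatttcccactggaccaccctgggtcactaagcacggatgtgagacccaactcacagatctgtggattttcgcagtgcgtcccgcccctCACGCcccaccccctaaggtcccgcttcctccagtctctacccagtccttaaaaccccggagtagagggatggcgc
Cyp1a1 (chr9:57697363-57697612, plus strand): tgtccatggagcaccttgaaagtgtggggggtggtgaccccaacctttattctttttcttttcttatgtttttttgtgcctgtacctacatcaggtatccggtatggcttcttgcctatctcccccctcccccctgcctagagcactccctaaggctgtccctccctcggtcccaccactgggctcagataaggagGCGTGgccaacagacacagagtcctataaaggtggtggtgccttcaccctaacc
Tiparp (chr3:65528197-65528446, plus strand): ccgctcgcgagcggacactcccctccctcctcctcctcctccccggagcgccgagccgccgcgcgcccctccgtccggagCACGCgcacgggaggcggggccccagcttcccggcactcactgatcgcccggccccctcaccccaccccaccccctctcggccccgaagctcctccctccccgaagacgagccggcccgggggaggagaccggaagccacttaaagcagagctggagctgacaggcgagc

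The matches of Ahrr began 107, 82 and 27 bases before the start, that of Cyp1a1 54, that of Cyp1b1 76 and that of Tiparp 170. G and C made up 60.4% of the Ahrr window and 75.2% of the Tiparp window, against a median of 52.4% over the table. The Nqo1 window held no match. The letters TGACNNNGC, a core of the antioxidant response element through which NRF2 acts on Nqo1, were found on either strand in 10.2% of windows and among the members in that of Arnt alone, apart from its GCGTG. A match describes letters in these windows and not binding. Sequence further upstream was not searched, so a missing match holds for these windows alone.

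Ahr, the receptor gene (probe set 17280729), measured 6.39 in Tc1 sample 1 and 7.06 and 6.83 on the 2 arrays of Tc1 sample 2, as log2 intensities. In Tc17 it measured 11.33 in sample 1 and 10.84 and 10.95 on the arrays of sample 2. Every Tc17 array thus stood far above every Tc1 array, and in each group the samples differed more than the repeat arrays of sample 2 did. The group means were 6.67 ± 0.39 and 11.11 ± 0.31 (SD, n = 2), with a log2 difference of 4.45 ± 0.24 (SE) and a 95% interval of 14.0-fold to 33.9-fold. Among the 22180 genes Ahr ranked 5 by its increase in Tc17 and 10 by the size of the difference in either direction. Without Tc17 sample 1 the difference was 4.23 and the limma adjusted p 0.0577, so the call was lost. It was kept with each of the other 3 samples left out. The Tc1 mean lay little above the array medians, which are no measure of background, so this too is a ratio of intensities.

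Ahrr, the repressor gene (probe set 17294352), measured 5.98 in Tc1 sample 1 and 5.62 and 6.07 on the arrays of sample 2. Its Tc17 values were 7.70 in sample 1 and 7.69 and 7.80 on the arrays of sample 2. The 3 Tc17 arrays lay within a narrow band above all Tc1 arrays, and the widest gap inside a group, 0.45, was between the repeat arrays of Tc1 sample 2. The log2 difference was 1.81 ± 0.08 (SE), with a 95% interval of 3.01-fold to 4.10-fold. The call was lost without Tc1 sample 2, Tc17 sample 1 or Tc17 sample 2 (limma adjusted p = 0.0531, 0.0594 and 0.0512), while the difference stayed between 1.74 and 1.88. The Tc1 mean of 5.91 lay below the median of every array (6.04 to 6.09), and the arrays give no detection call, so this fold holds for intensities and not for transcripts.

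**Figure D1:**
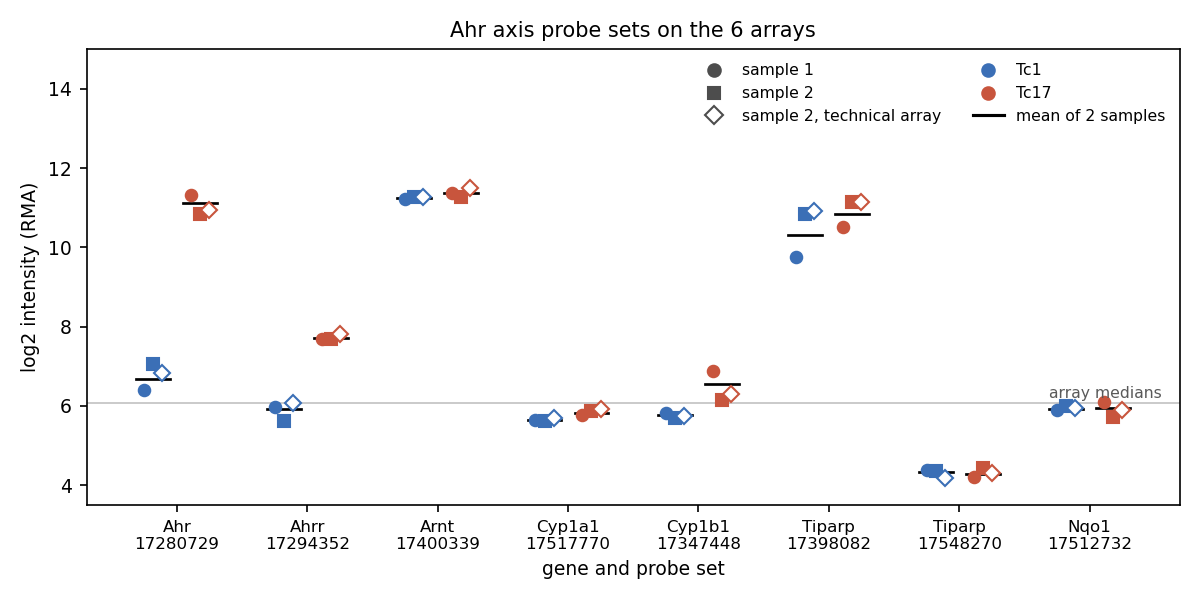
Log2 RMA intensity (vertical axis) of the 8 probe sets of the axis on each of the 6 arrays; circles are sample 1, squares sample 2, open diamonds its technical array, blue Tc1, red Tc17, bars the means of 2 samples and the grey band the array medians. Ahr moves from 6.67 to 11.11 and Ahrr from 5.91 to 7.72, while for Tiparp sample 1 lies below sample 2 in both groups on the brighter probe set.

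Arnt, the partner with which the receptor binds DNA (probe set 17400339), measured 11.21, 11.28 and 11.28 on the Tc1 arrays and 11.38, 11.26 and 11.49 on the Tc17 arrays. These ranges overlapped. The fold was 1.10, with a 95% interval of 0.958 to 1.25 (limma adjusted p = 0.556).

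Among the targets, Cyp1b1, a cytochrome P450 gene (probe set 17347448), measured 5.81, 5.69 and 5.73 on the Tc1 arrays. In Tc17 it measured 6.88 in sample 1 and 6.15 and 6.29 on the arrays of sample 2. All Tc17 arrays were higher, sample 1 more so than sample 2. The log2 difference was 0.79 ± 0.23 (SE, 95% interval 1.14-fold to 2.62-fold before adjustment), and it did not pass (limma adjusted p = 0.265). Left with 1 Tc17 sample, it was 1.11 for sample 1 and 0.46 for sample 2. The Tc1 mean of 5.76 lay below every array median.

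Cyp1a1, the P450 gene usually read as the marker of receptor activity (probe set 17517770), measured 5.63, 5.62 and 5.70 on the Tc1 arrays and 5.77, 5.86 and 5.91 on the Tc17 arrays. Although the groups did not overlap, all 6 values lay below the array medians. The log2 difference of 0.18 ± 0.08 (SE) was not called (limma adjusted p = 0.455), with a 95% interval from 0.978-fold to 1.31-fold. Without a detection call, signal above background was not tested for Cyp1a1 in either group. The interval thus bounds the intensity ratio and not the transcript ratio.

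Tiparp, which encodes an ADP-ribosyltransferase that dampens the receptor (probe set 17398082), measured 9.75 in Tc1 sample 1 and 10.85 and 10.92 on the arrays of Tc1 sample 2. Its Tc17 values were 10.51 in sample 1 and 11.15 and 11.14 on the arrays of sample 2. The samples differed by 1.13 within Tc1 and 0.63 within Tc17, with sample 2 higher in both, and the repeat arrays of sample 2 by 0.07 and 0.01. The log2 difference between groups, 0.51 ± 0.43 (SE), was smaller than the gap inside either group and did not pass (limma adjusted p = 0.710, 95% interval 0.648-fold to 3.13-fold). It was −0.055 without Tc1 sample 1 and 1.08 without Tc1 sample 2. The other probe set, 17548270, measured 4.18 to 4.39 in Tc1 and 4.20 to 4.44 in Tc17, below every array median, with a difference of −0.04.

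Nqo1, the gene of a quinone reductase that is driven by both the receptor and NRF2 (probe set 17512732), measured 5.89, 5.98 and 5.94 on the Tc1 arrays. On the Tc17 arrays it measured 6.10, 5.71 and 5.90, so the Tc17 range enclosed that of Tc1. The fold was 1.02 (95% interval 0.817 to 1.27, limma adjusted p = 0.953), and both group means lay below the array medians.

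**Figure D2:**
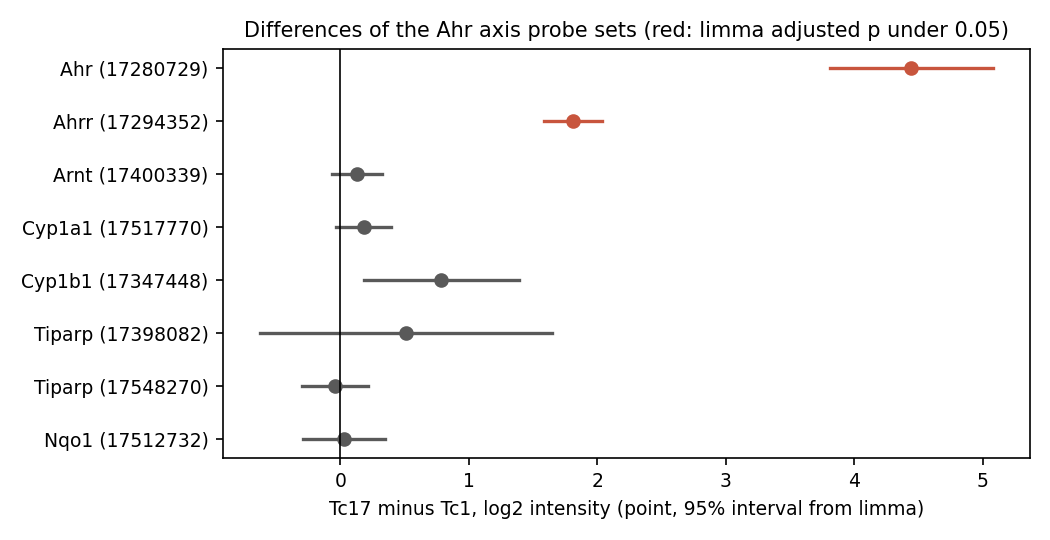
Difference Tc17 minus Tc1 in log2 intensity (horizontal axis) for each probe set of the axis, with points for the estimate and lines for the 95% interval from limma on 2 samples per group, red where the adjusted p is under 0.05. The intervals of Ahr, Ahrr and Cyp1b1 lie above 0, that of Cyp1b1 without passing the adjusted test, and that of Tiparp is the widest.

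Markers of the sorted population and of other spleen cells were read on the same arrays. Cd8a measured 12.91 in Tc1 and 12.78 in Tc17, and none of 5 CD8+ T cell markers was called by limma (0 at an unadjusted p under 0.05). Of 6 macrophage and monocyte markers, Lyz2, the lysozyme gene, was called higher, from 5.44 to 8.97, against 0.992% of all genes. Lyz2, Csf1r, Adgre1 and Cd14 were higher at an unadjusted limma p under 0.05 and 0 were lower, against 9.1% and 6.79% of all genes. For the same 4 all Tc17 arrays lay above all Tc1 arrays, an order found in 15.2% of all genes. The summed linear intensity of all 6 markers was 293 to 313 in the Tc1 samples and 718 to 892 in the Tc17 samples. Lyz2 carried most of that gap, from 43.4 and 43.6 to 580 and 434, while the other 5 summed to 249.8 and 269 in Tc1 and to 312 and 284 in Tc17. Adgre1, Cd14 and Fcgr1 measured 4.85, 5.14 and 5.08 in Tc1 and 5.23, 5.39 and 5.10 in Tc17. These values lay below the array medians, which are no measure of background. Csf1r measured 6.28 in Tc1 and 6.56 in Tc17, and Itgam 6.39 and 6.48. None of the B cell (4), dendritic cell (5), CD4+ (3), NK and innate lymphoid (3) or gamma-delta T cell (2) markers was called. Their unadjusted counts were 1 higher, 0, 0, 1 lower and 0, where 9.1% of all genes were higher and 6.79% lower. The part of other cells in the values of Ahr and Ahrr was not tested, and in such bulk RNA more cells with a transcript and more transcript per cell cannot be told apart.

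Around the receptor, the genes of its cytosolic complex and coregulators had no called member. None of 9 measured genes was called by limma, where 0.992% of all genes were called higher and 0.591% lower. At an unadjusted p under 0.05, 3 were higher and 0 lower, against 9.1% and 6.79% of all genes. With the 6 arrays taken as separate samples 3 were called higher and 0 lower, against 4.89% and 3.36% of all genes. Their median log2 difference was −0.01. Src, a tyrosine kinase gene, and Ncoa1, a coactivator gene, had the largest differences, 0.53 and 0.51 (limma adjusted p = 0.108 and 0.208). Hsp90aa1, an HSP90 gene, measured 9.65 in Tc1 and 9.50 in Tc17.

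Of 13 other bHLH-PAS genes, the family of Ahr and Arnt, 1 was called higher and none lower, against 0.992% and 0.591% of all genes. The list's median was 0.0015. At an unadjusted p under 0.05, 4 were higher and 1 lower, against 9.1% and 6.79% of all genes. With 6 separate arrays 2 were called higher and 0 lower, against 4.89% and 3.36% of all genes. Npas2 encodes a clock factor that pairs with the product of Arntl. It measured 5.86, 6.18 and 6.45 on the Tc1 arrays and 8.69, 8.42 and 8.85 on the Tc17 arrays. Its Tc1 mean of 6.09 lay within the range of the array medians, so the difference holds for intensities. Its difference was 2.58 (limma adjusted p = 0.0133), and this list had no called gene without Tc17 sample 1 or without Tc17 sample 2. Arntl (BMAL1) had a difference of 0.88 and Epas1 (HIF-2 alpha) of −0.69, and neither passed (limma adjusted p = 0.169 and 0.305). Hif1a, whose product also pairs with that of Arnt, had a difference of 0.09.

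Other genes linked to the xenobiotic response did not share a direction. Of 8 measured, 1 was called higher and 1 lower, against 0.992% and 0.591% of all genes, and the list's median was 0.03. There were 3 higher and 1 lower at an unadjusted p under 0.05, against 9.1% and 6.79% of all genes. Taken as 6 separate arrays, the data gave 3 called higher and 1 lower, against 4.89% and 3.36% of all genes. Nfe2l2, the gene of NRF2, measured 9.62, 9.58 and 9.66 in Tc1 and 10.93, 10.68 and 10.79 in Tc17, a difference of 1.22 (limma adjusted p = 0.0205). Xdh, which encodes the purine-degrading xanthine dehydrogenase, went the other way, from 10.48, 10.40 and 10.43 to 8.79, 8.22 and 8.33, a difference of −1.92 (limma adjusted p = 0.0328). Cyp2s1 and Socs2 had differences of 0.79 and 0.63, neither of them called (limma adjusted p = 0.168 and 0.234). The call of Nfe2l2 was lost without any 1 of the 4 samples, and that of Xdh without either Tc1 sample.

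The NRF2 response genes, which include enzymes of glutathione and NADPH supply, were read beside Nqo1 and Nfe2l2. Of 19 measured genes none was called higher and 1 lower by limma, against 0.992% and 0.591% of all genes, with a median of −0.04. There were 1 higher and 4 lower at an unadjusted p under 0.05, against 9.1% and 6.79% of all genes. With 6 separate arrays 1 was called higher and 3 lower, against 4.89% and 3.36% of all genes. The called gene was Me1, the NADP-dependent malic enzyme, with a difference of −4.12 (limma adjusted p = 0.00256). Its Tc17 mean of 5.18 lay below every array median, so the difference holds for intensities. Hmox1, the heme oxygenase gene, and Gstm1, a glutathione transferase gene, differed by −0.55 and 0.44, neither passing (limma adjusted p = 0.257 and 0.149). For 4 of the 19 all Tc17 arrays lay below all Tc1 arrays, an order seen in 14.5% of all genes, and for 3 they lay above.

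Genes of tryptophan uptake and of the metabolism of tryptophan-derived ligands, their breakdown included, had no called member among 15 measured. Over all genes 0.992% were called higher and 0.591% lower. At an unadjusted p under 0.05 limma gave 5 higher and 0 lower, against 9.1% and 6.79% of all genes. With 6 separate arrays 4 were called higher and 0 lower, against 4.89% and 3.36% of all genes. Kmo, kynurenine 3-monooxygenase, measured 6.99 to 7.10 in Tc1 and 7.78 to 8.52 in Tc17, a difference of 1.17 (limma adjusted p = 0.147). Kynu, kynureninase, had a difference of 0.64 (limma adjusted p = 0.104) with both means below the array medians. The tryptophan carrier genes Slc7a5 and Slc3a2 had differences of −0.21 and −0.16.

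T cell genes linked to the receptor held the most calls. Of 15 measured, 7 were higher and 1 lower, against 0.992% and 0.591% of all genes, and the median was 1.32. The higher count was 4 without Tc1 sample 1 and 4 without Tc1 sample 2. Il17a and Il17f also define the Tc17 state, and the list was chosen with values of its genes known. The 4 largest called differences were those of the cytokine genes Il17f (6.09), Il17a (5.21) and Il21 (4.25) and of the regulatory factor gene Foxp3 (3.95). Without Tc1 sample 1 or Tc1 sample 2 the call was lost for Il17a (limma adjusted p = 0.0538 and 0.0609) and for Il21 (0.139 and 0.138), and those of Il17f and Foxp3 held with each of the 4 samples left out. The Tc1 mean of Il21, 5.72, lay below every array median, as did that of Il23r. The lower gene, picked after its value was seen, was Entpd1, which encodes the ectoenzyme CD39, with a difference of −2.04 (limma adjusted p = 0.0112); it passed only without Tc1 sample 1 among the 4 fits with a sample left out. For Il10 and Il23r the differences, −1.81 and 1.59, missed the threshold (limma adjusted p = 0.0625 and 0.295). Il23r passed without Tc17 sample 2, at 2.34 (limma adjusted p = 0.0292). Il22, the cytokine gene most often tied to the receptor, measured 2.99 to 3.04 in Tc1 and 3.01 to 3.16 in Tc17, below every array median.

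**Figure D3:**
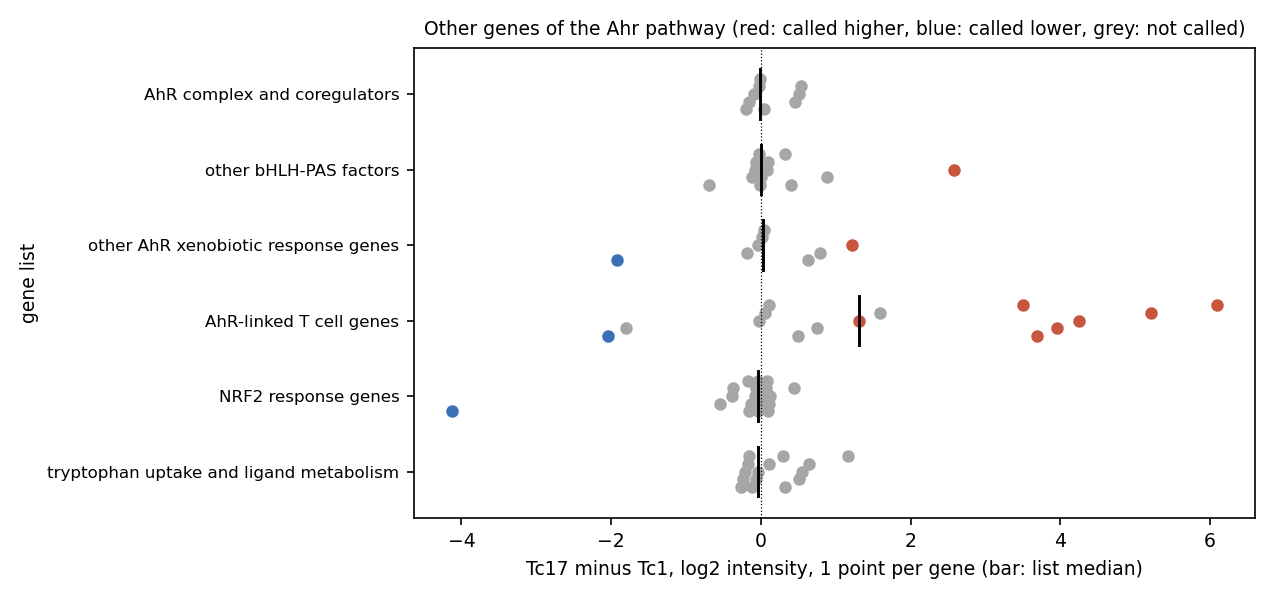
Difference Tc17 minus Tc1 in log2 intensity (horizontal axis) for each measured gene of 6 lists around the receptor (vertical axis); red points were called higher, blue lower and grey not called by limma, and black bars are list medians. The T cell list has its median at 1.32, while the other 5 medians lie between −0.04 and 0.03.

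The genes most like Ahr were sought by the Euclidean distance between profiles over the 6 arrays, after subtracting each gene's mean. Provisional symbols (Gm numbers, Rik and LOC) were passed over here and for Ahrr. The nearest were Pdpn (podoplanin, distance 0.79), Foxp3 (0.82), Il21 (0.88), Gpr15 (a homing receptor, 0.93) and Ifngr2 (an interferon-gamma receptor chain, 0.99), whose log2 differences ran from 3.68 to 4.25. The Tc1 mean of Gpr15, 5.16, was below every array median. On Tc1 sample 1 Ahr lay below all 5 of these profiles. Il21, Pdpn and Gpr15 shared with Ahr the higher value in Tc17 sample 1, and Foxp3 and Ifngr2 did not. Il21 measured 10.54 there against 9.28 and 9.54 on the arrays of sample 2. Pdpn measured 10.73 against 10.30 and 10.34, and Gpr15 8.90 against 8.76 and 8.80. Nearest to Ahrr were Igfbp7 (an insulin-like growth factor binding protein, 0.34), Galm (galactose mutarotase, 0.34) and Nek6 (a mitotic kinase, 0.35), with differences of 1.80, 1.97 and 1.74. With 2 samples per group a distance mainly reflects the size of the group difference.

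**Figure D4:**
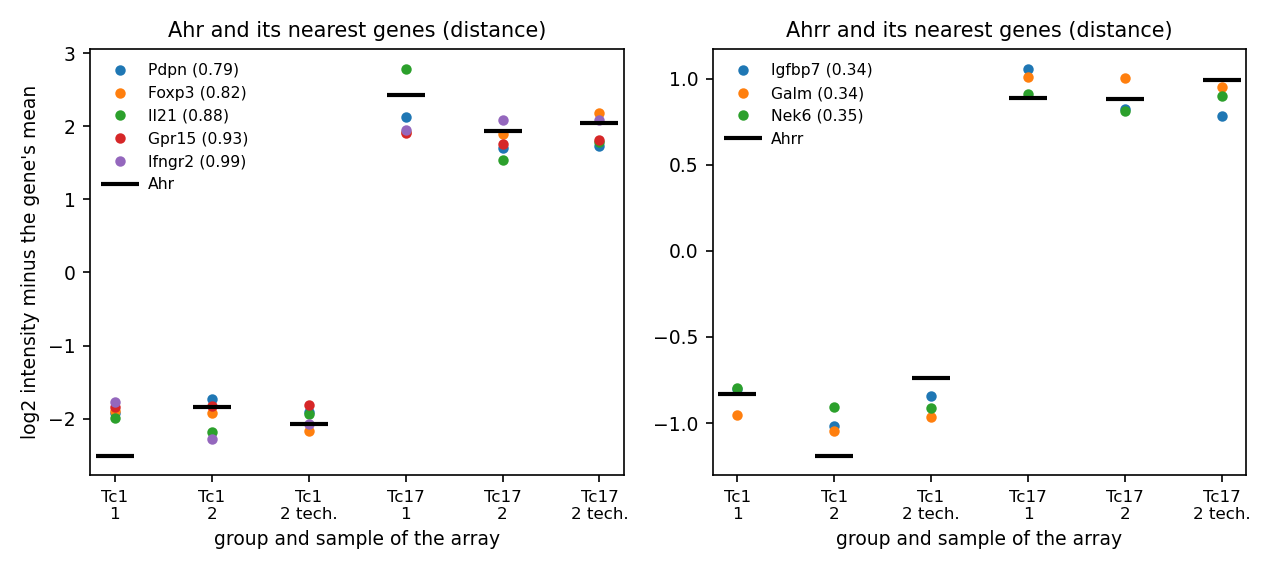
Log2 intensity minus the gene's own mean (vertical axis) on the 6 arrays (horizontal axis, by group and sample) for Ahr with its 5 nearest genes and for Ahrr with its 3 nearest; black bars are Ahr and Ahrr, and coloured points the other genes with their distance. All profiles step up between Tc1 and Tc17, and Ahr is the lowest of its panel in Tc1 sample 1.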

How the data were processed

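The deposited values are log2 intensities, 1 column per array, for which the submitters' processing notes name RMA and Partek without versions or roles; the authors' scale was taken from the values. RMA subtracts background, equalizes the arrays by quantiles and summarizes probes. The build and which arrays were processed together are not given in the sources used here. No array has a detection call, and the number of arrays limits precision.

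Each technical array was averaged with sample 2 of its group, as the titles number it. limma 3.58.1 (R 4.3.3) tested Tc17 minus Tc1 over 41345 probe sets, with no filter and Benjamini-Hochberg adjustment, on 2 residual and 2.63 prior degrees of freedom. Nothing states that samples came from separate cultures, so p-values measure only the spread between them. For 2 against 2 an exact permutation test cannot go below p = 0.333 (two-sided). The median difference of all probe sets was −0.02. Before adjustment, 5482 probe sets had a p under 0.05. On data drawn for Tc17 against Tc1 with 41345 probe sets, the procedure recovered 88% of log2 changes of 1 and 98% of changes of 2. The draw was normal and took the fit's own spreads, already pulled towards a common value, as the true ones. Its percentages thus check the procedure and do not tell whether an uncalled gene changed.

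The 7 members, the lists and the tests were chosen with earlier results of these data known. Named genes were all members; from each of 6 lists the called genes, or the 4 largest where more than 4 were called, and the 2 largest uncalled ones; the 5 genes nearest Ahr; and the 3 nearest Ahrr. Exceptions are Hsp90aa1, Hif1a, Slc7a5, Slc3a2, Il22, Entpd1, Cd8a and the 6 macrophage and monocyte markers, named for their role with values known. Of the listed genes, 22 were not analysed here. Figures used matplotlib 3.10.9.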

Additional observations from a re-analysis of the deposited data

How the results depend on the processing

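Over 16 alternative settings the number of called members was 2 in 13, and 0 to 2 leaving out each sample in turn. It was 2 with the replicate number as a block, a fit that called 1535 probe sets against 418. The numbers are not stated to pair samples (deviations of same-numbered samples correlated at 0.31). Leaving out Tc1 sample 1, Tc1 sample 2, Tc17 sample 1 and Tc17 sample 2 gave totals of 107, 48, 54 and 125. Among readings of the technical array, 377 were called without it, 1581 with it averaged into sample 1, 2318 with 6 separate arrays and 2074 with the sample as a random block. The difference of Ahr ran from 4.16 to 4.72 and that of Ahrr from 1.74 to 1.90. Cyp1b1 and Tiparp were not called in any setting. Nor were Arnt, Cyp1a1 and Nqo1 in those that kept their probe sets, since the filter on level left out the latter 2. The replicate block took the SE of Tiparp from 0.43 to 0.14 and that of Cyp1b1 from 0.23 to 0.15. In that fit the limma adjusted p was 0.145 for Tiparp and 0.0680 for Cyp1b1.

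Nqo1 changed sign, to −0.033 without technical arrays, −0.093 with them averaged into sample 1, −0.032 with 6 separate arrays and −0.024 with the random block, and ran from −0.12 to 0.17 leaving out samples. Tiparp was −0.042 on its other probe set, 0.23 as the mean of both, and ran from −0.055 to 1.08 leaving out samples. The cause was not tested. List counts over the settings ran, for higher calls, from 4 to 9 (T cell genes), 0 to 3 (complex; xenobiotic), 0 to 2 (bHLH-PAS), 0 to 1 (NRF2) and 0 to 4 (tryptophan), and for lower calls from 0 to 2 (T cell), 0 to 1 (xenobiotic) and 1 to 3 (NRF2). With a sample left out, the group with 1 sample is taken to vary like the other.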
